A study of Homo sapiens with 6 samples.

Results

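The 10 genes that place or remove methylation of histone H3 lysine 4 (H3K4) were examined for 2 histone marks at their own promoters. They are KMT2A, KMT2C, KMT2D and SETD1A, which encode catalytic methyltransferases; ASH2L, RBBP5 and DPY30, which encode shared core subunits; and KDM1A, KDM5A and KDM5B, which encode demethylases. An interval was taken as a member if it lay within 5 kb of the listed hg19 transcription start of 1 of the 10 genes. This gave 57 of 275570 intervals in the 4 peak lists, of which 30 of 53454 came from H3K4me3 in metformin-treated cells and 27 of 50585 from H3K4me3 in control cells. None came from H3K27me3, neither from the 85952 intervals of treated cells nor from the 85579 of control cells.

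The cells were H1299, a standard human line from a non-small cell lung carcinoma, and the labels name no introduced allele. One group was treated with 5 mM metformin, a biguanide given in type 2 diabetes, for a time that the labels do not give, and the other was left untreated. H3K4me3, a mark of active promoters, and H3K27me3, the repressive mark of Polycomb complexes, were each mapped by chromatin immunoprecipitation and sequencing after micrococcal nuclease digestion. There was 1 library for each mark and condition, so no difference below has a replicate error or a test, and each describes the 2 libraries compared. The 2 input libraries were not analysed here. Read depth is unknown because the lists hold no counts, and the metformin H3K4me3 list is longer and covers 55.2 Mb against 49.4 Mb in the control list. Each interval carries a deposited value, read as a −log10 q, which ranks intervals within a list and is not a signal level. The lists hold no gene names, so the cell line could not be checked against marker genes.

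H3K4 methylation is placed by SET domain enzymes that work in complexes. The catalytic subunit alone is weak, and ASH2L, RBBP5 and DPY30 join it with WDR5 to form the active core. SETD1A complexes place much of the trimethylation at active promoters, KMT2A (MLL1) acts at HOX and other developmental genes, and KMT2C and KMT2D (MLL3 and MLL4) mainly place monomethylation at enhancers. KDM1A (LSD1) removes mono- and dimethylation with a flavin cofactor, and KDM5A and KDM5B remove di- and trimethylation with iron and 2-oxoglutarate. Unmethylated CpG dinucleotides are bound by CXXC domains, 1 of which lies in KMT2A itself and 1 in CXXC1, a partner of SETD1A.

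Most of the promoters examined were rich in CpG, the feature that the mark is known to follow. RefSeq's promoter table (GRCh38.p14) matched 8 of the 10 genes, all but ASH2L and DPY30. In the 250 bases before the RefSeq start the 8 promoters held between 12 (RBBP5) and 48 (KMT2C) CpG dinucleotides, with a median of 23.0, against a median of 11.0 over all 35116 promoters in the table. Their ratio of observed to expected CpG had a median of 0.88, and it was at least 0.6 in 8 of 8, as in 47.5% of all promoters. GC content ran from 46.8% in RBBP5 to 92.0% in KMT2C, and the KMT2C value was above 99.99% of all promoters. RBBP5 was above only 25.5% of all promoters by GC content and 51.5% by CpG count. Each promoter was searched on both strands for 5 motifs, none of which contains another. GGGCGG, the core of the SP1 site, was present in 7 of 8 member promoters and in 42.6% of all promoters. The other 4 motifs were in 0 of 8 member promoters. Over all promoters TATAAA, the TATA box, was in 10.7%, the CCAAT box in 32.0%, the ETS core CCGGAAG in 8.52%, and ATGGCGG, a core of YY1 sites, in 2.88%. Among 12 other genes of the pathway (SETD1B, KMT2B, WDR5, CXXC1, MEN1, HCFC1, PAXIP1, NCOA6, KDM1B, KDM2B, KDM5C and KDM5D), 8 were in the table with 15 promoters. Of these promoters 12 had a CpG ratio of at least 0.6 and 9 held GGGCGG, and their marks were not analysed here because no hg19 position was at hand.

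Sequences of 4 promoters are shown because H3K4me3 left a gap at the start (KMT2A, KMT2C), because the gap was present in control cells alone (KDM1A), or because the interval had the highest value of the set (KDM5A). Each runs 5′ to 3′ toward the start, with CpG dinucleotides in capitals. The windows are on another build than the peaks and were not placed on hg19.
KMT2A promoter (GRCh38.p14, chr11:118436242-118436491, plus strand): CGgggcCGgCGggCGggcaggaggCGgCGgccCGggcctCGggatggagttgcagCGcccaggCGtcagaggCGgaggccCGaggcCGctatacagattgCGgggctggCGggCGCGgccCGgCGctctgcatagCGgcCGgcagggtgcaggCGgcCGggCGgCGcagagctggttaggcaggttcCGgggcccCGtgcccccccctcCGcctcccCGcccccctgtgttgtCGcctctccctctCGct
KMT2C promoter (GRCh38.p14, chr7:152436004-152436253, minus strand): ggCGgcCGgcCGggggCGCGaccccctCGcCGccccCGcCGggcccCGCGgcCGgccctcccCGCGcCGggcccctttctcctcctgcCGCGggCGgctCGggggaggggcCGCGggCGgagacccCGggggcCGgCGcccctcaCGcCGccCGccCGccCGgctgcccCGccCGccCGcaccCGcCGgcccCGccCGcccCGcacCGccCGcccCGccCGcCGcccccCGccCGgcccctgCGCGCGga
KDM1A promoter (GRCh38.p14, chr1:23019218-23019467, plus strand): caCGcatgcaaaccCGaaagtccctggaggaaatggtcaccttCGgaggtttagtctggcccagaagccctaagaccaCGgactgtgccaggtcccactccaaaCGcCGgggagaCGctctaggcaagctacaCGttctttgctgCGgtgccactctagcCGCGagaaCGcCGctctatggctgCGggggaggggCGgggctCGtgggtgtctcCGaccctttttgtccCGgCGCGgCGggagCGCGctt
KDM5A promoter (GRCh38.p14, chr12:389321-389570, minus strand): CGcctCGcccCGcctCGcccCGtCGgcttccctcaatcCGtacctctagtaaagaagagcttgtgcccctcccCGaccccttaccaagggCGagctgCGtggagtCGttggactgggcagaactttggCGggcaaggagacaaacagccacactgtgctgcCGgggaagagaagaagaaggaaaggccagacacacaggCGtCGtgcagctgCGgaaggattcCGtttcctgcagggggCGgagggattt

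All 10 genes carried H3K4me3 within 5 kb of the start in both conditions. The start itself lay inside an interval in 7 of 10 genes after metformin and in 6 of 10 in control cells (exact 95% intervals 34.8 to 93.3% after metformin and 26.2 to 87.8% in control, counting error only). The exceptions were KMT2A, KMT2C and KMT2D in both conditions, and KDM1A in control cells. Over all member intervals the median percentile within the list was 60.6 by value and 56.4 by width for the 30 of treated cells, and 75.01 by value and 74.4 by width for the 27 of control cells. In treated cells 12 member intervals stood below the list's median value, and in control cells 6. Each gene also had a higher-ranked interval, chosen here as the best of up to 5. The highest value per gene stood at a median percentile of 89.4 after metformin and 87.3 in control, and the widest interval per gene at a median percentile of 92.6 after metformin and 93.3 in control. Intervals of 4 kb or more made up 4 of 30 member intervals after metformin, where 2.98% of the whole list was that wide, and 3 of 27 in control, where it was 2.44%. The exact 95% intervals of the member shares were 3.76 to 30.7% after metformin and 2.35 to 29.2% in control. Most intervals of a list lie at unknown distance from a gene, so this sets promoters beside all called sites.

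**Figure D1:**
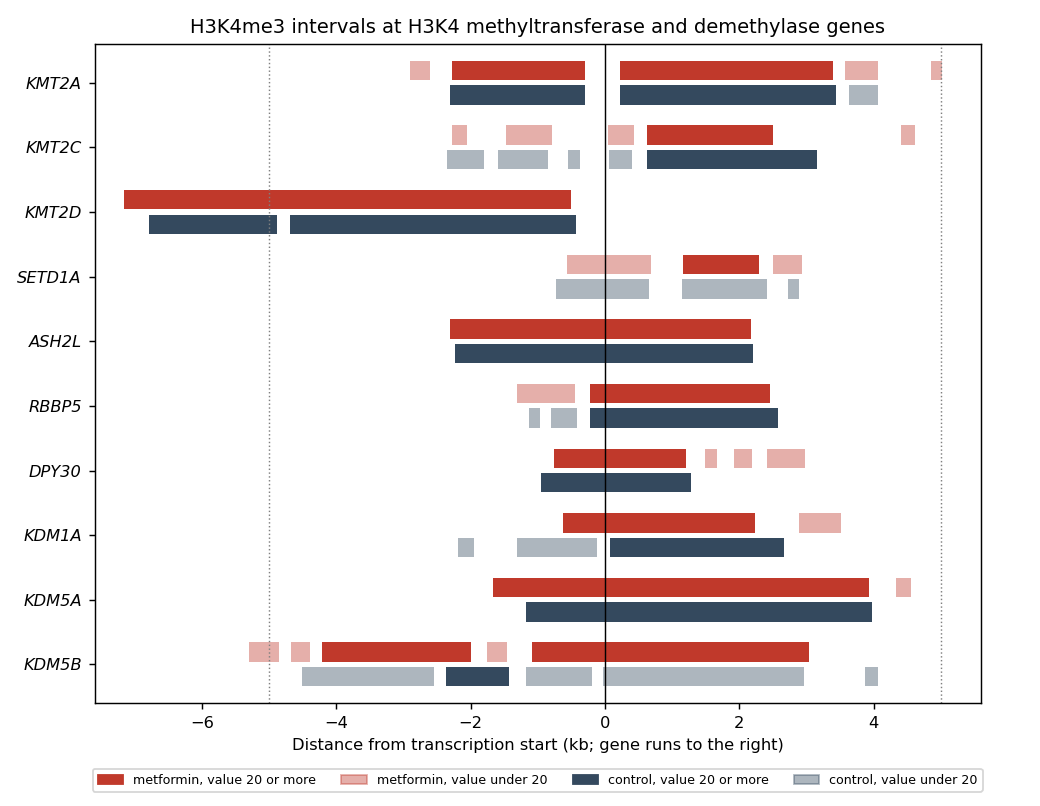
H3K4me3 intervals of each gene by distance from the hg19 start in kb, turned so that the gene runs to the right, with metformin above control and pale bars for intervals with a value under 20. The start lay between intervals at KMT2A and KMT2C in both libraries and at KDM1A in control cells, and all KMT2D intervals stood upstream of it.

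The total H3K4me3-covered length within 5 kb of the 10 starts was close to equal, at 44.1 kb after metformin and 43.4 kb in control cells, a ratio of 1.02. Covered length was larger after metformin at 7 genes, at SETD1A by 2 bp only, and smaller at 3, with a median ratio per gene of 1.02. The 7 became 4 when intervals with a value under 5 were left out, 2 within 2 kb of the start and 8 within 10 kb. For want of an hg19 annotation, no share over all genes stands beside these counts. The ratio of the total was 0.963 when intervals with a value under 5 were left out, and 0.981 within 2 kb of the start, so its side of 1 depended on the weaker and more distant intervals. The 4 methyltransferase genes held 16.8 kb after metformin and 17.2 kb in control cells. The 3 core subunit genes held 11.0 kb after metformin and 10.0 kb in control cells, and the 3 demethylase genes 16.4 kb after metformin and 16.2 kb in control cells. By gene, the metformin to control ratio ran from 0.781 at KMT2C and 0.866 at KDM1A to 1.13 at KDM5A and 1.34 at DPY30.

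**Figure D2:**
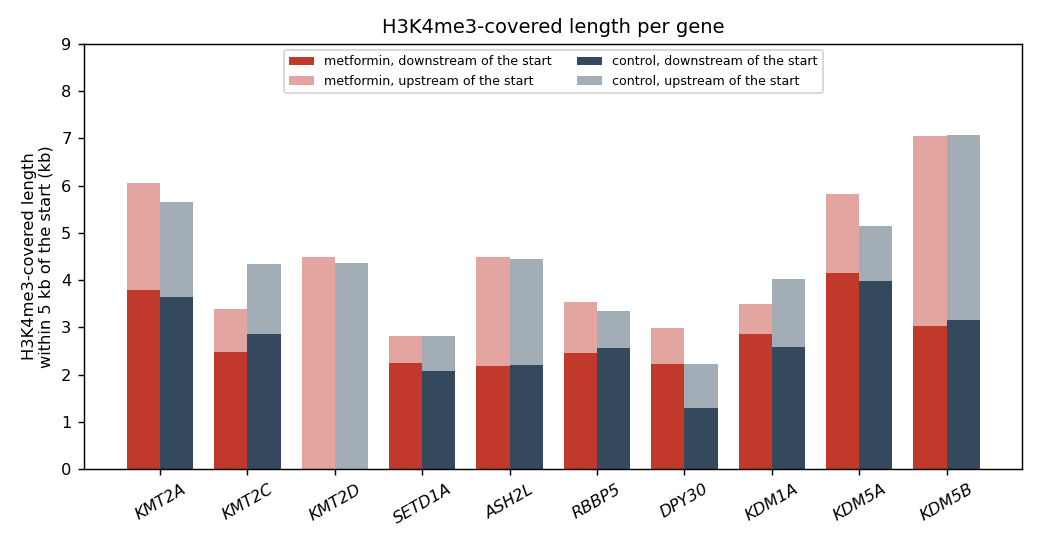
H3K4me3-covered length in kb within 5 kb of each start, metformin left of control, divided into the part downstream (dark) and upstream (pale) of the start. DPY30 reached 2980 bp after metformin against 2232 bp in control cells, KMT2C 3386 bp after metformin against 4338 bp in control cells, and KMT2D held no downstream part in either.

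To set the genes beside the rest of the genome, intervals of both conditions that overlap were joined into loci. Of 31149 loci with both conditions present, 30.4% had a covered length at least 25% longer after metformin than in control cells (the higher class), and 14.3% had one at least 20% shorter (the lower class). The 10 genes held 19 such loci, of which 2 were in the higher class and 3 in the lower (exact 95% intervals 1.3 to 33.1% for the higher and 3.38 to 39.6% for the lower). The higher ones were a 428 bp locus downstream of the SETD1A start and a 885 bp locus upstream of RBBP5. The lower ones were the main KMT2C locus, a 558 bp locus upstream of KMT2C, and the KDM1A locus. The median ratio was 0.99 over the member loci and 1.07 over all loci. It was above 1 at 42.1% of the 19 member loci and at 61.8% of all loci. Among loci of 2 kb or more, 0 of 11 member loci were higher and 2 were lower, against 17.1% higher and 4.83% lower among all 10353 such loci. The median ratio there was 0.99 over the member loci and 1.04 over all loci. The exact 95% interval for 2 of 11 reaches from 2.28 to 51.8%, and that for 0 of 11 reaches up to 28.5%. The loci belong to chosen genes, some with several loci. These intervals therefore cannot decide whether the member shares differ from those of all loci.

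**Figure D3:**
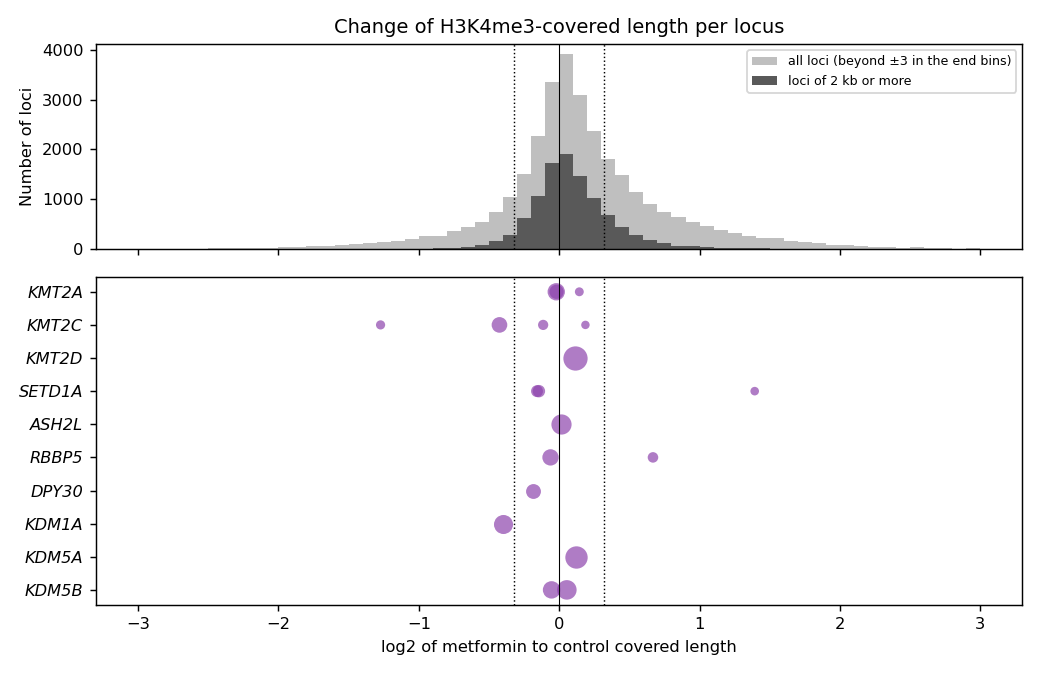
Above, the number of H3K4me3 loci by log2 of metformin to control covered length, for all loci and for those of 2 kb or more. Below, the 19 member loci by gene, with larger points for wider loci; dotted lines mark 25% longer and 20% shorter, and 14 of the 19 points lie between them.

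At 4 member loci there was a single interval after metformin where control cells had several. They were the loci of KMT2D, KDM1A and KDM5B and the upstream locus of RBBP5. This is 4 of 19, where 16.5% of all loci had that form, and the opposite form was found at 0 of 19 against 8.98% of all loci. Among loci of 2 kb or more, 3 of 11 member loci had the first form, against 31.1% of all such loci. The opposite form was found there at 0 of 11, against 16.9%. The member shares thus did not stand above those of loci of like width. Intervals without a partner in the other list numbered 9 of 30 after metformin (exact 95% interval 14.7 to 49.4%), where 32.7% of the whole list had none. In control cells they numbered 3 of 27 (2.35 to 29.2%), where 22.7% had none. They were short and low in both lists: 164 to 627 bp wide with values from 1.84 to 6.76 after metformin, and 175 to 246 bp wide with values from 3.46 to 4.55 in control cells. The intervals with a partner had a median width of 1878 bp and a median value of 21.8 after metformin, and 1646 bp and 17.8 in control cells.

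KMT2A encodes the methyltransferase that is rearranged in infant and treatment-related leukaemias. Its start (chr11:118307205, plus strand) lay in a gap of 533 bp after metformin and 528 bp in control cells, between a pair of wide intervals. Downstream, chr11:118307435-118310597 in treated cells (3163 bp, 10 sub-peaks, value 41.4) matched chr11:118307433-118310641 in control cells (3209 bp, 6 sub-peaks, value 25.7). Upstream, chr11:118304925-118306901 in treated cells (1977 bp, value 31.1) matched chr11:118304902-118306904 in control cells (2003 bp, value 30.1). The edges that face the start thus differed by 2 or 3 bp between the libraries. The metformin list held 2 further short intervals with no control partner, at 2899 to 2612 bp before and 4857 to 5020 bp after the start, with values of 2.38 and 5.67. Covered length was 6058 bp after metformin and 5652 bp in control cells.

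KMT2C encodes a methyltransferase of enhancers and had the lowest ratio of covered length in the set. Its start (chr7:152133090, minus strand) lay 41 bp outside the nearest interval after metformin and 55 bp outside it in control cells. The gap across the start was 827 bp in treated cells and 426 bp in control cells, which held a 175 bp interval there with a value of 3.57. The main downstream interval was chr7:152130588-152132465 after metformin (1878 bp, value 43.3) and chr7:152129939-152132460 in control cells (2522 bp, value 26.95). Its near edge lay 625 bp downstream of the start after metformin and 630 bp in control cells. Its far edge lay at 2502 bp after metformin and 3151 bp in control cells, so this interval differed mainly at its far end. A 202 bp metformin interval from 4416 to 4617 bp downstream, with a value of 1.84, had no control partner. Covered length was 3386 bp after metformin and 4338 bp in control cells. Upstream of the start it was 911 bp after metformin and 1469 bp in control cells. Downstream it was 2475 bp after metformin and 2869 bp in control cells, so the larger part of the difference was upstream. Its promoter is the one with 92.0% GC given above, and the part of base composition in these gaps was not tested.

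KMT2D encodes the other large enhancer methyltransferase, mutated in Kabuki syndrome, and had no H3K4me3 downstream of the listed start (chr12:49449107, minus strand). All of its signal stood upstream. After metformin 1 interval of 6664 bp, chr12:49449612-49456275, held 24 sub-peaks with a value of 60.6. Control cells had chr12:49449544-49453793 (4250 bp, 13 sub-peaks, value 60.0) and chr12:49453997-49455902 (1906 bp, 6 sub-peaks, value 31.9). The nearest edge lay 505 bp from the start after metformin and 437 bp in control cells. The joined locus held 6664 bp of H3K4me3 after metformin and 6156 bp in control cells, a ratio of 1.08. Whether another start of KMT2D or of a neighbouring gene lies under these intervals was not examined, for want of an hg19 annotation. The RefSeq promoter of KMT2D counted above was not placed on hg19 and may belong to another start than the listed one. The position of H3K4me3 given here therefore holds for the listed start only.

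SETD1A encodes the catalytic subunit of a promoter complex and had the lowest covered length after metformin, and its widest interval was the narrowest of the set in both lists. Around its start (chr16:30968615, plus strand) stood chr16:30968044-30969296 in treated cells (1253 bp, value 19.3) and chr16:30967879-30969263 in control cells (1385 bp, value 17.8). Another interval from 1169 to 2300 bp downstream after metformin had a value of 26.0, and its control partner from 1153 to 2415 bp had 15.1. Covered length was 2813 bp after metformin and 2811 bp in control cells. The third pair gave the ratio of 2.63 counted above and was weak, with 428 bp at a value of 1.65 after metformin and 163 bp at 2.30 in control cells.

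The core subunit genes had H3K4me3 across the start in both libraries. ASH2L had a single interval, chr8:37960703-37965185 after metformin (4483 bp, value 38.6) and chr8:37960777-37965221 in control cells (4445 bp, value 26.2). Its outer edges lay 2308 bp upstream and 2174 bp downstream of the start after metformin, and 2234 bp upstream and 2210 bp downstream in control cells. RBBP5, whose product binds ASH2L, had chr1:205088692-205091365 (2674 bp, value 33.9) in treated cells and chr1:205088573-205091363 (2791 bp, value 30.7) in control cells. The upstream edge of RBBP5 stood 222 bp before the start after metformin and 220 bp before it in control cells. Further upstream lay 866 bp in 1 metformin interval, against 545 bp in 2 control intervals.

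DPY30, the smallest subunit, had the largest ratio of covered length, 1.34, and this came from weak intervals. The interval over its start was narrower after metformin, at chr2:32263678-32265640 (1963 bp, value 35.0), than in control cells, at chr2:32263600-32265831 (2232 bp, value 31.9). The additional metformin length was 3 intervals of 181, 270 and 566 bp between 1495 and 2972 bp downstream, with values of 6.76, 3.15 and 3.64. None of them had a control partner. Downstream covered length was 2221 bp after metformin and 1282 bp in control cells, and upstream it was 759 bp after metformin and 950 bp in control cells.

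KDM1A was the gene whose start was covered in 1 library and not in the other. After metformin 1 interval, chr1:23345320-23348178 (2859 bp, 8 sub-peaks, value 50.9), covered the start (chr1:23345941, plus strand). In control cells the start lay in a gap of 189 bp between chr1:23344632-23345822 (1191 bp, value 15.1) and chr1:23346012-23348600 (2589 bp, value 30.6). The upstream reach was shorter in treated cells, which held 621 bp of H3K4me3 before the start against 1437 bp in control cells. Downstream of the start, treated cells held 2865 bp and control cells 2589 bp. The treated length there included a 627 bp interval from 2887 to 3513 bp, with a value of 3.37 and no control partner. The main interval ended 2237 bp downstream after metformin and 2659 bp in control cells. The control length upstream included a 246 bp interval with a value of 4.55 and no metformin partner. The ratio over the locus was 0.756, in the lower class.

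KDM5A, first known as a partner of the retinoblastoma protein, had the highest value of the set in both lists. The interval was chr12:494694-500294 after metformin (5601 bp, 17 sub-peaks, value 73.6, rank 670 of 53454) and chr12:494644-499797 in control cells (5154 bp, 15 sub-peaks, value 70.5, rank 347 of 50585). It reached 1674 bp upstream of the start after metformin and 1177 bp in control cells, while the downstream edge lay at 3926 bp after metformin and at 3976 bp in control cells. KDM5B, which is expressed in many tumours, had the largest covered length, 7056 bp after metformin and 7067 bp in control cells. Its highest value was 21.8 after metformin, at percentile 75.1 of that list, and 21.5 in control cells, at percentile 79.3. Over its start stood chr1:202774514-202778636 in treated cells (4123 bp, value 20.7) and chr1:202774588-202777582 in control cells (2995 bp, value 17.8). The control interval ended 33 bp upstream of the start and was followed by another after a gap. Upstream of the KDM5B start, 4020 bp were covered in treated cells and 3908 bp in control cells.

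No gene had H3K27me3 within 5 kb of its start in either library. The exact 95% interval for 0 of 10 reaches up to 30.8%, but it covers counting error only, and the 10 genes were chosen. Over the member H3K4me3 intervals, 0 of 30 after metformin and 0 of 27 in control cells had H3K27me3 within 5 kb, where 14.3% of all H3K4me3 intervals did after metformin and 10.8% in control cells. Among H3K4me3 intervals of 2 kb or more these shares were 9.12% after metformin and 5.74% in control cells. The nearest H3K27me3 interval was 12.5 kb away after metformin, upstream of KDM5B, and 9.90 kb away in control cells, upstream of ASH2L. The median distance over the 10 genes was 65.5 kb after metformin and 60.2 kb in control cells. Within 100 kb, H3K27me3 was found around 7 of the 10 genes after metformin (exact 95% interval 34.8 to 93.3%) and 8 in control cells (44.4 to 97.5%). Of all H3K4me3 intervals, 59.8% had it within 100 kb of their edges after metformin and 55.3% in control cells, and among those of 2 kb or more 58.7% after metformin and 54.2% in control cells, so the gene counts did not stand apart from these shares. The farthest nearest intervals were those of KMT2C after metformin (309 kb) and DPY30 in control cells (220 kb). The 20 nearest intervals had values from 1.15 to 1.76, where the median of each H3K27me3 list was 1.5.

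**Figure D4:**
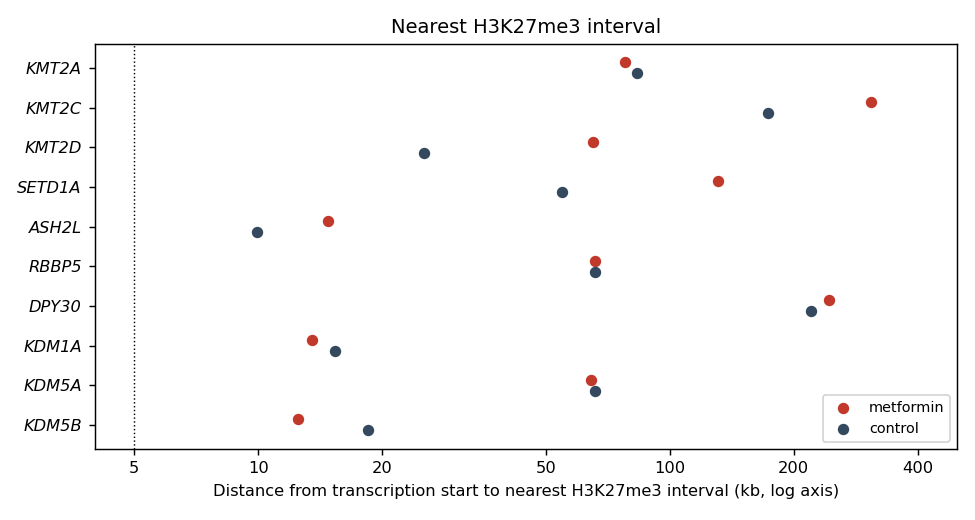
Distance in kb (log axis) from each start to the nearest H3K27me3 interval, with metformin and control as a pair of points per gene, and the 5 kb limit dotted. All points lie beyond the limit, from 9.90 kb at ASH2L in control cells to 309 kb at KMT2C after metformin.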

How the data were processed

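Analysis started from the 4 deposited peak lists, each made from 1 ChIP library. Per the submitters' processing notes the tools were Trimmomatic 0.38, Bowtie and MACS2 on hg19 (GRCh37). The sources used here give neither options nor a background library. The authors' deposited lists have no header and hold 1 value per line, read here as a −log10 q because H3K4me3 values start at 1.31 and H3K27me3 values at 1.00 or 1.01, the −log10 of common limits. Lines sharing an interval (sub-peaks) were joined and carry their highest value. Coordinates are 1-based. Starts are those of the selection rule, gene strands come from RefSeq (ASH2L and DPY30 from general knowledge), and all 10 members are named. The members, lists and comparisons were chosen with earlier results of these data known. Loci join intervals overlapping by 1 bp or more. Exact Clopper-Pearson intervals cover counting error only. With 1 library per group no test was made. A simulated list copied the control list with 200 intervals widened past the limit and the others unchanged. Of the widened intervals 200 of 200 were recovered among 50585. This checks the code alone, since the copy held none of the differences that arise between 2 libraries. Alternatives varied threshold, window, joining, fold limit and list length. Python 3.11.15, pandas 2.3.3, numpy 2.4.6, scipy 1.17.1, matplotlib 3.10.9 and bedtools 2.31.1 were used.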

Additional observations from a re-analysis of the deposited data

How the results depend on the processing

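No paired analysis was possible because each mark was mapped once per condition, and no replicate could be left out. The alternatives without KMT2D, with values of 20 or more for the loci, and all those for intervals without a partner were chosen after seeing the data. The number of genes with H3K4me3 over the start (7 after metformin, 6 in control cells) depended on the setting. Keeping only values of 20 or more left 6 after metformin and 4 in control cells. Merging intervals within 1 kb gave 9 in both conditions. Dropping values under 5, or equalising list length, changed neither count. The ratio of total covered length (1.02) became 0.963 at a value of 5 or more and 0.981 within 2 kb, below 1 in both, and 1.05 within 10 kb, 1.05 with intervals within 1 kb merged, 1.01 with lists of equal length and 1.01 without KMT2D. Genes with a larger covered length after metformin (7 of 10) numbered 4 at a value of 5 or more and 2 within 2 kb. They numbered 8 within 10 kb, 5 with merging and 6 with lists of equal length. Loci in the higher class (2 of 19, against 30.4% of all loci) numbered 4 of 19 at a limit of 1.1 times (45.4% of all), 1 of 16 at a value of 5 or more (29.4%), 1 of 10 with merging (33.7%), 1 of 18 with equal length (30.5%), 1 of 10 at a value of 20 or more (25.1%) and 0 of 11 among loci of 2 kb or more (17.1%). Loci in the lower class (3 of 19, against 14.3% of all) numbered 6 of 19 at 1.1 times (24.0%), 1 of 19 at 1.5 times (7.89%), 0 of 10 with merging (14.5%) and 1 of 10 at 20 or more (12.2%). Genes with H3K27me3 (0 in both) numbered 0 after metformin and 1 in control cells within 10 kb, and 3 after metformin and 4 in control cells within 50 kb. The median percentiles of each gene's best interval fell with the smaller populations. By width they were 86.99 after metformin and 87.98 in control among values of 5 or more, and 77.5 after metformin and 78.6 in control among intervals of 1 kb or more. By value they were 81.3 after metformin and 77.2 in control at 5 or more, and 69.0 after metformin and 61.7 in control at 1 kb or more. Intervals without a partner (9 after metformin, 3 in control) numbered 2 after metformin and 1 in control at a value of 5 or more, and 1 after metformin and 0 in control with merging. Unknown depth limits the weak intervals most, and the cause of these shifts was not tested.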

Other observations

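H3K27me3 was called in the wider surroundings of most of the 10 genes. Within 100 kb of the start, H3K27me3 covered 79.2 kb in 50 intervals after metformin and 59.0 kb in 46 intervals in control cells, summed over the genes. Over the whole lists H3K27me3 covered 93.3 Mb after metformin and 85.5 Mb in control cells. It was found around neither KMT2C nor DPY30 in either library. KDM5A had the most, 22.2 kb after metformin and 22.7 kb in control cells, followed by KMT2A with 15.9 kb after metformin and 12.1 kb in control cells. RBBP5 had 14.9 kb after metformin and 11.3 kb in control cells. Around KDM5B it was 7.22 kb after metformin against 1.92 kb in control cells, and around KDM1A 10.6 kb after metformin against 5.93 kb in control cells. Genes named in this paragraph were picked with the values in view.

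H3K4me3 in the same windows was densest around KMT2D, with 34.1 kb in 29 intervals after metformin and 30.4 kb in 27 in control cells, and around SETD1A, with 26.9 kb after metformin and 23.3 kb in control cells. It was sparsest around RBBP5, with 6.10 kb after metformin and 5.93 kb in control cells. Close to this were KMT2C, with 6.38 kb after metformin and 7.72 kb in control cells, and KDM1A, with 7.19 kb after metformin and 6.37 kb in control cells. Beyond the 5 kb limit the next H3K4me3 interval began 5651 bp from the SETD1A start after metformin and 6150 bp in control cells. The members closest to that limit on its inner side were the second KMT2D interval of control cells, from 4890 bp upstream with a value of 31.9, a metformin interval at KDM5B, from 4861 bp upstream with a value of 2.28, and a metformin interval at KMT2A, from 4857 bp downstream with a value of 5.67. The next H3K4me3 interval was farthest at RBBP5, 86932 bp from its start after metformin and 86845 bp in control cells. At KDM1A it was nearly as far, at 79523 bp after metformin and 82076 bp in control cells.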
